A study of Mus musculus with 22 samples.

Results

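Interferon-inducible GTPases are defence proteins of the cell whose genes are induced by interferon. The 10 genes described here were Irgm1, Irgm2, Igtp, Iigp1, Tgtp1, Tgtp2, Gm4951, F830016B08Rik, Gbp2 and Gbp3, out of 54373 genes listed in each count table. They were selected on measured values of these libraries: several of them were counted higher in the libraries labelled CYP1B1-/- than in the WT libraries after house dust mite (HDM) exposure. That contrast is therefore given as a description, and no test of the 10 genes in it is used. The libraries were bulk RNA sequencing of mouse lung epithelial cells (ECs), sorted as living cells with EpCAM and without the leukocyte antigen CD45. Mice were C57BL/6 wildtype (WT) or lacked the aryl hydrocarbon receptor (AhR-/-) or the cytochrome P450 enzyme CYP1B1 (CYP1B1-/-). The mutant strains had been backcrossed to C57BL/6, as the methods state. At steady state (naive) there were 4 WT, 3 AhR-/- and 3 CYP1B1-/- libraries. After intranasal sensitization and challenge with HDM extract there were 4 libraries of each genotype. The methods state that mice of both sexes, more than 7 weeks old, were used, with age and sex matched between animals, but no age was given per library. Nothing says whether the libraries came from separate or pooled animals, so p-values measure only the spread between these libraries. The naive and the HDM libraries are in separate tables named as separate runs, so that state and run cannot be told apart.

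These proteins belong to 2 families. The immunity-related GTPases (IRG) hold regulators and effectors: Irgm1, Irgm2 and Igtp (also called Irgm3) sit on the membranes of the cell's own organelles and keep the effectors inactive there. The effectors Iigp1 (Irga6), Tgtp1 and Tgtp2 (both Irgb6) load onto the vacuoles that enclose parasites and bacteria. Gm4951 and F830016B08Rik are less studied genes of the effector kind. The guanylate-binding proteins Gbp2 and Gbp3 are larger GTPases that coat pathogens and their vacuoles. Interferon-gamma is their main inducer: it acts through the receptor Ifngr1/Ifngr2 and the kinases Jak1 and Jak2 on the GAS motif in promoters, while type I interferons act through a complex that binds the ISRE motif. Lung ECs are known to respond to both kinds of interferon.

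Several properties of the libraries touch every result below. Total counts ran from 9654825 to 17878442, but Gm10800, a predicted gene, took 0.00819% to 71.9% of them. Outside 6 dominant predicted genes, protein-coding counts were 7218689 to 14120921 in naive libraries and 1180756 to 16447855 in HDM libraries. Epcam, which defines the sorted cells, was at 131 to 406 CPM (reads scaled to a common library size) in naive and 54.6 to 209 CPM in HDM libraries. The sum of 5 general epithelial markers was at 1785 to 3205 CPM in naive and 384.9 to 661 CPM in HDM libraries. That of 5 alveolar type 1 markers was at 17566 to 27730 and 246.6 to 12665 CPM. These CPM were scaled within each state, so the ranges of naive and HDM libraries are not on a common scale. The gene of CD45, Ptprc, was at 2.65 to 79.8 CPM in naive libraries but at 187 to 427 CPM in WT, 11.1 to 111 CPM in AhR-/- and 21.7 to 432 CPM in CYP1B1-/- HDM libraries, although cells with CD45 had been gated out. Gene counts of the targeted genes did not check the labels by loss. Ahr was at 21.9 to 27.4 CPM in libraries labelled AhR-/- and 9.69 to 16.6 CPM in WT at steady state, and at 9.52 to 20.4 CPM against 8.04 to 12.7 CPM after HDM. Cyp1b1 was higher in all libraries labelled CYP1B1-/- (3.33 to 11.2 CPM) than in all others (0.503 to 2.81 CPM). Genotypes below are those of the labels. The Y-linked gene Ddx3y was at 27.9 to 136 CPM in all naive libraries and at 53.8 and 52.2 CPM in AhR-/- HDM replicates 3 and 4, and at no more than 0.0639 CPM in the other HDM libraries. The part of these differences in the results was not tested, except where a fit with or without them is given.

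Of the 10 genes, 7 lie on chromosomes 11 and 3 (build GRCm38, GENCODE M21), all as protein-coding genes. Irgm1 (chromosome 11, 48861968 to 48871683), Tgtp1 (48985327 to 48994172) and Tgtp2 (49057194 to 49064206) are neighbours on the minus strand. Irgm2 (chromosome 11, 58199618 to 58222782) and Igtp (58199556 to 58207591) overlap on the plus strand, and 4.39% of the exonic bases of Irgm2 and 8.01% of those of Igtp are shared. Gbp3 (142560026 to 142573209) and Gbp2 (142620602 to 142638008) are on the plus strand of chromosome 3. Of all stretches of 50 bases in the transcripts of Tgtp1, 81.2% also occur in another gene, mostly Tgtp2, and 86.6% of those of Tgtp2 do. Their reads could be split or dropped by the counting, so the counts of Tgtp1 and Tgtp2 are uncertain as single genes. The share was 11.8% for Igtp, 7.77% for Irgm2 and 4.62% or less for the other 6 genes.

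RefSeq promoter sequences (GRCm38.p6, from 250 bases before to 50 bases after a start) were given for 7 of the 10 genes. They are shown because they hold the motifs through which interferon acts. The ISRE core was searched on both strands as GAAA, 2 bases of any kind and GAAA again. It is in a promoter of 7 of these 7 genes, in 7 of their 8 promoter entries and in 3.44% of 32851 promoters. Among other genes of both families and related GTPases, 6 of 10 with a promoter entry hold it as well. The GAS core TTCNNNGAA, which reads the same on both strands, is in 8.3% of all promoters. In Irgm2, Igtp, Tgtp1 and Tgtp2 the GAS core ends 2 bases before the ISRE core. That arrangement is in 5 of 32851 promoters (0.0152%), and the fifth belongs to Gm12185, which overlaps Tgtp1. For these 4 genes, 60 bases around both motifs follow, 5′ to 3′ on the gene's strand, with both motifs in capitals.
Irgm2: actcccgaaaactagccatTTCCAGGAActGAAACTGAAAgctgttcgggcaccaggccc
Igtp: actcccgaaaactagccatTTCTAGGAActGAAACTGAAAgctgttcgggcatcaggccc
Tgtp1: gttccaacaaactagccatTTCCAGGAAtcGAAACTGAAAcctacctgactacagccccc
Tgtp2: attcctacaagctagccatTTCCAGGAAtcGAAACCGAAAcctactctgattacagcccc
They lie at chr11:58214883-58214942 (plus strand), chr11:58199492-58199551 (plus), chr11:48992294-48992353 (minus) and chr11:49064253-49064312 (minus). None of the 4 windows reaches an annotated exon: those of Igtp and Tgtp2 lie upstream of the gene, and those of Irgm2 and Tgtp1 lie within the gene, outside its exons. The other 3 promoters hold ISRE cores without a GAS core beside them, shown in 30 bases each.
Irgm1: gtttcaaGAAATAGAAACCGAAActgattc
Gbp2: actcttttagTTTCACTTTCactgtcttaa
Gbp3: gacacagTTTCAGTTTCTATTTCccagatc
These are at chr11:48871428-48871457 (minus strand), chr3:142620594-142620623 (plus) and chr3:142559992-142560021 (plus). Irgm1 and Gbp3 each have 2 overlapping cores, and in Gbp2 and Gbp3 the cores are on the opposite strand. The windows of Irgm1 and Gbp2 reach into an annotated exon, and that of Gbp3 lies upstream of the gene. A motif match describes the sequence and does not show binding.

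Gm4951, F830016B08Rik and Iigp1 follow each other on the plus strand of chromosome 18 (60212080 to 60247820, 60293380 to 60303016 and 60376027 to 60392634), also as protein-coding genes.

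CPM below divide a gene's reads by a library size scaled with TMM within the table, so that libraries are comparable within a state but not between states. At steady state the IRG regulators were abundant and the effectors were scarce in every genotype. Per kilobase of exon, WT ECs held Igtp at 12.0 ± 1.11 CPM (SD, n = 4), Irgm2 at 6.93 ± 0.961 and Irgm1 at 4.42 ± 0.839. Gbp2 came next at 2.09 ± 1.65, followed by Gbp3 at 1.18 ± 0.869, Iigp1 at 0.999 ± 0.354 and Gm4951 at 0.571 ± 0.291. At the bottom were Tgtp2 (0.354 ± 0.141), F830016B08Rik (0.259 ± 0.116) and Tgtp1 (0.167 ± 0.0859). From Gbp2 down, neighbours in that order differed by less than the larger of their SDs, except Iigp1 and Gm4951, whereas the 3 regulators stood apart from each other by more than their SDs. AhR-/- libraries had the same 3 regulators on top in the same order (13.9 ± 2.03, 8.06 ± 0.481 and 4.27 ± 0.379, n = 3), as had CYP1B1-/- libraries. There the means did not differ beyond their spread (11.2 ± 7.13, 6.29 ± 3.73 and 3.74 ± 2.31, n = 3), but the order held within each library. The regulators were at 3.48, 2.04 and 1.16 in replicate 2, at 17.5, 9.06 and 5.59 in replicate 3 and at 12.8, 7.76 and 4.47 in replicate 4.

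In CPM per library, Irgm1 was at 31.2, 20.97, 28.3 and 22.3 in WT, at 22.3, 26.3 and 25.8 in AhR-/- and at 6.73, 32.5 and 26.0 in CYP1B1-/- ECs at steady state. The low value belongs to CYP1B1-/- replicate 2, where Irgm2 (7.53 CPM) and Igtp (7.03 CPM) were low as well. That library also had the highest share of Gm10800 among the naive libraries (29.2%). F830016B08Rik was at 0.996, 1.27, 0.788 and 0.361 CPM in WT, at 1.38, 0.976 and 0.419 in AhR-/- and at 0.301, 0.667 and 0.724 in CYP1B1-/- ECs, and the 3 groups overlapped. Tgtp1 had 0 to 9 reads per naive library and was too low to be tested there.

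None of the 9 tested genes passed the threshold of an adjusted p of 0.05 between genotypes at steady state in edgeR's quasi-likelihood test, nor with DESeq2 or limma voom. Over all 15547 genes tested, 0% passed for AhR-/- against WT, 0.0129% for CYP1B1-/- against WT and 0.00643% for AhR-/- against CYP1B1-/-. The log2 folds of CYP1B1-/- against WT were below 0 for 9 of 9 genes, from -0.56 (Iigp1, SE 0.39) to -0.09 (Igtp, SE 0.37). For these genes the median was -0.37, and that over all genes was -0.05. Under other settings 0 to 5 of the 9 folds lay above 0, so the common direction depends on the setting. At an unadjusted p under 0.05 there was 1 gene of the 9 for AhR-/- against WT (all genes: 1.69%) 0 of 9 for CYP1B1-/- against WT (all genes: 5.8%) and 0 of 9 for AhR-/- against CYP1B1-/- (all genes: 4.23%). The exception was Gbp2, with 1.55, 1.87 and 1.85 CPM in AhR-/- against 11.3, 3.9, 3.84 and 1.93 CPM in WT ECs. All 3 AhR-/- libraries lay below all WT libraries, as for 1.89% of all genes. Its log2 fold was -1.56 (SE 0.60, adjusted p = 1.00 by edgeR), and that of Gbp3 was -0.93 (SE 0.49). The highest Gbp2 and Gbp3 values came from WT replicate 1, which also had the most hematopoietic marker reads of the naive libraries (353 CPM summed over 10 markers, against 39.9 to 118 CPM in the others). Without that library the log2 folds were -0.86 for Gbp2 and -0.33 for Gbp3, and with the marker level as a covariate they were -0.92 and -0.22.

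Iigp1, Tgtp2, Gbp2 and Gbp3 were higher after HDM than at steady state in WT and AhR-/- ECs, where Irgm2 and Igtp passed the threshold in neither. With the hematopoietic marker level as a covariate none of these 4 genes passed, and the log2 fold of Gbp3 in WT ECs went from 2.51 to -0.21. For this comparison all 22 libraries were scaled and fitted together. In AhR-/- ECs, whose libraries played no part in choosing the genes, 7 of 10 genes rose and 0 fell, against 10.6% of 16639 genes that rose and 10.1% that fell. In WT ECs, whose HDM libraries were the low side of the choice, 6 of 10 rose and 0 fell, against 19% and 19.4% of all genes. In CYP1B1-/- ECs 9 of 10 rose and 0 fell, against 15.5% and 17.9% of all genes. The HDM libraries of CYP1B1-/- ECs were used to choose the genes, so nothing is read from that count. Tgtp1, too low to be tested among the naive libraries, entered through its HDM reads, and without it 5, 6 and 8 of 9 rose in WT, AhR-/- and CYP1B1-/- ECs. Markers of hematopoietic cells moved with the state: 10 of 10 rose in WT, 9 of 10 in AhR-/- and 10 of 10 in CYP1B1-/- ECs. With their mean level as a covariate, 0, 1 and 0 of the 10 genes passed in WT, AhR-/- and CYP1B1-/- ECs. Y-linked reads went with the state as well, since Ddx3y was present in all naive libraries and absent or nearly so from all HDM libraries but the 2 of AhR-/- ECs named above. Markers of ECs moved too: of 5 general epithelial markers 4 fell in WT, 1 in AhR-/- and 4 in CYP1B1-/- ECs, of 5 of alveolar type 1 cells 4, 0 and 5 fell, and of 5 of type 2 cells 2, 4 and 4 rose. Their part in the folds was not tested. State and run cannot be told apart, and in WT and CYP1B1-/- ECs Y-linked reads went with them in every library. The 2 AhR-/- HDM libraries with Y-linked reads also had hematopoietic marker sums of 120 and 109 CPM, against 51.8 to 85.8 CPM in naive AhR-/- libraries. Naive libraries of all genotypes had 39.9 to 118 CPM, except WT replicate 1 with 353 CPM. These sums were scaled within each state. On library sizes set over both tables, Gbp2 was at 2.27 and 19.4 CPM in AhR-/- HDM replicates 3 and 4 and at 1.08 to 1.35 CPM in the naive AhR-/- libraries. Iigp1 was at 1.82 and 16.4 CPM against 2.99 to 5.11 CPM, so that replicate 4 lay above the naive values of both genes and replicate 3, with 5 and 4 reads, did not for Iigp1. In AhR-/- ECs, 7 of 10 passed without those 2 HDM libraries, and 4 of 10 without naive replicate 3. The median log2 fold of the 10 genes was 1.71 in WT, 2.22 in AhR-/- and 3.74 in CYP1B1-/- ECs, where all genes had medians of -0.11, -0.05 and -0.02. Without Tgtp1 it was 1.55, 2.21 and 3.67, and with the hematopoietic covariate it was 0.62, 1.18 and 1.31 over the 10 genes.

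**Figure D1:**
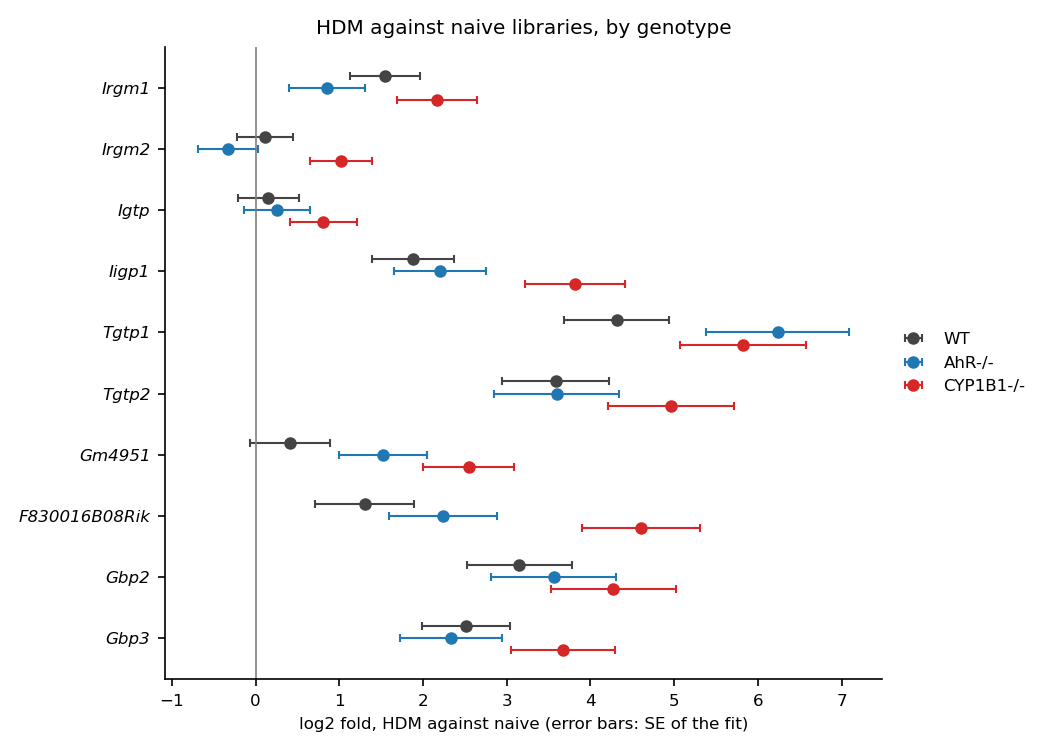
Log2 fold of HDM against naive libraries (x axis) for the 10 genes (y axis) in each genotype, from the fit over all 22 libraries; points are estimates and bars their standard errors. Tgtp1, too low to be tested among naive libraries alone, has the highest fold in each genotype, and Irgm2 and Igtp lay within 1 of 0 except Irgm2 in CYP1B1-/- ECs at 1.02.

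The reads of Tgtp1 and Tgtp2 were few in naive libraries, 0 to 9 and 2 to 18 in each. Tgtp1 was tested only because its HDM reads passed the filter on low counts, so its difference from naive libraries is given as a description. It had 8, 9, 3 and 5 reads in the naive and 323, 17, 28 and 90 reads in the HDM libraries of WT ECs, a log2 fold of 4.31 (SE 0.63). In AhR-/- ECs it went from 2, 2 and 0 to 323, 107, 1 and 18 reads, and its log2 fold of 6.24 (SE 0.85) rests on 4 naive reads. The log2 folds of Tgtp2 were 3.58 (SE 0.64) in WT and 3.598 (SE 0.75) in AhR-/- ECs. Both genes were counted in part on shared sequence, so these are not independent values.

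Gbp2 rose with log2 folds of 3.15 (SE 0.63, adjusted p = 0.000425 by edgeR) in WT and 3.56 (SE 0.74, adjusted p = 0.0029) in AhR-/- ECs, and Gbp3 with 2.51 (SE 0.53) and 2.34 (SE 0.61). Of the effectors on chromosome 18, Iigp1 rose in both genotypes, with log2 folds of 1.88 (SE 0.49, adjusted p = 0.00402 by edgeR) in WT and 2.21 (SE 0.55, adjusted p = 0.00778) in AhR-/- ECs. F830016B08Rik and Gm4951 rose in AhR-/- ECs, with log2 folds of 2.24 (SE 0.64, adjusted p = 0.0168 by edgeR) and 1.52 (SE 0.53, adjusted p = 0.0433). With the hematopoietic covariate these folds were 1.83 and 0.67 and no longer passed, and the libraries of F830016B08Rik overlapped between states. In WT ECs their log2 folds were 1.30 (SE 0.59, adjusted p = 0.0885 by edgeR) and 0.41 (SE 0.48, adjusted p = 0.538).

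Of the regulators, Irgm1 rose in WT ECs (log2 fold 1.55, SE 0.42, adjusted p = 0.00536 by edgeR) and had a log2 fold of 0.86 (SE 0.46, adjusted p = 0.188) in AhR-/- ECs. Irgm2 was at 0.12 (SE 0.34) in WT and -0.33 (SE 0.36) in AhR-/- ECs, and Igtp at 0.15 (SE 0.36) and 0.26 (SE 0.39), none of them past the threshold. With the hematopoietic covariate Irgm1 was at 0.48 in WT ECs and no longer passed, beside 0.07 for Irgm2 and 0.06 for Igtp. Whether the 3 differed from each other was not tested. The sign of Irgm2 and Igtp in WT ECs changed without replicate 1 of the HDM libraries (to -0.08 and -0.17).
In CYP1B1-/- ECs the log2 folds were 2.17 for Irgm1, 1.02 for Irgm2 and 0.81 for Igtp. The effectors there were at 3.82 for Iigp1, 5.82 for Tgtp1, 4.96 for Tgtp2, 2.55 for Gm4951 and 4.61 for F830016B08Rik, and Gbp2 and Gbp3 were at 4.27 and 3.67.

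After HDM, the 10 genes had higher group means in CYP1B1-/- than in WT ECs. Among the 10, the 3 effectors of chromosome 18 had the highest log2 folds, with Iigp1 within its SE of Tgtp1 and Tgtp2. This is the contrast that chose the genes. F830016B08Rik was at 9.84, 12.6, 7.18 and 4.2 CPM in CYP1B1-/- and at 1.33, 1.36, 0.408 and 1.13 CPM in WT ECs. All CYP1B1-/- libraries were above all WT libraries, and the log2 fold was 2.96 (SE 0.65). Gm4951 was at 4.39, 3.33, 4.14 and 2.0 CPM against 1.33, 0.681, 0.714 and 1.02 CPM (log2 fold 1.81, SE 0.42). Iigp1 was at 30.2, 48.3, 31.2 and 18.2 CPM against 16.2, 10.9, 8.06 and 6.91 CPM (log2 fold 1.59, SE 0.53). In these 3 neighbouring genes no CYP1B1-/- library reached down into the WT range.

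Among the effectors of chromosome 11, Tgtp1 was at 14.9, 12.4, 16.5 and 9.38 CPM in CYP1B1-/- and at 9.15, 3.86, 2.86 and 4.82 CPM in WT ECs, with the lowest CYP1B1-/- value just above the highest WT value. Tgtp2 was at 12.7, 5.47, 23.6 and 18.3 CPM against 10.3, 4.77, 4.49 and 4.98 CPM, and the groups overlapped through CYP1B1-/- replicate 2. The log2 folds were 1.32 (SE 0.54) and 1.29 (SE 0.52). Of the regulators, Irgm2 was at 25.0, 27.6, 30.5 and 23.0 CPM against 16.7, 17.3, 12.2 and 10.9 CPM, with the smallest standard error of the 10 genes (log2 fold 0.90, SE 0.23). Igtp was at 19.3, 19.7, 28.9 and 20.3 CPM against 18.7, 16.3, 10.2 and 9.8 CPM (log2 fold 0.69, SE 0.25). Irgm1 overlapped, at 40.6, 36.9, 78.1 and 56.2 CPM against 49.8, 30.9, 38.0 and 31.5 CPM (log2 fold 0.50, SE 0.32).

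**Figure D2:**
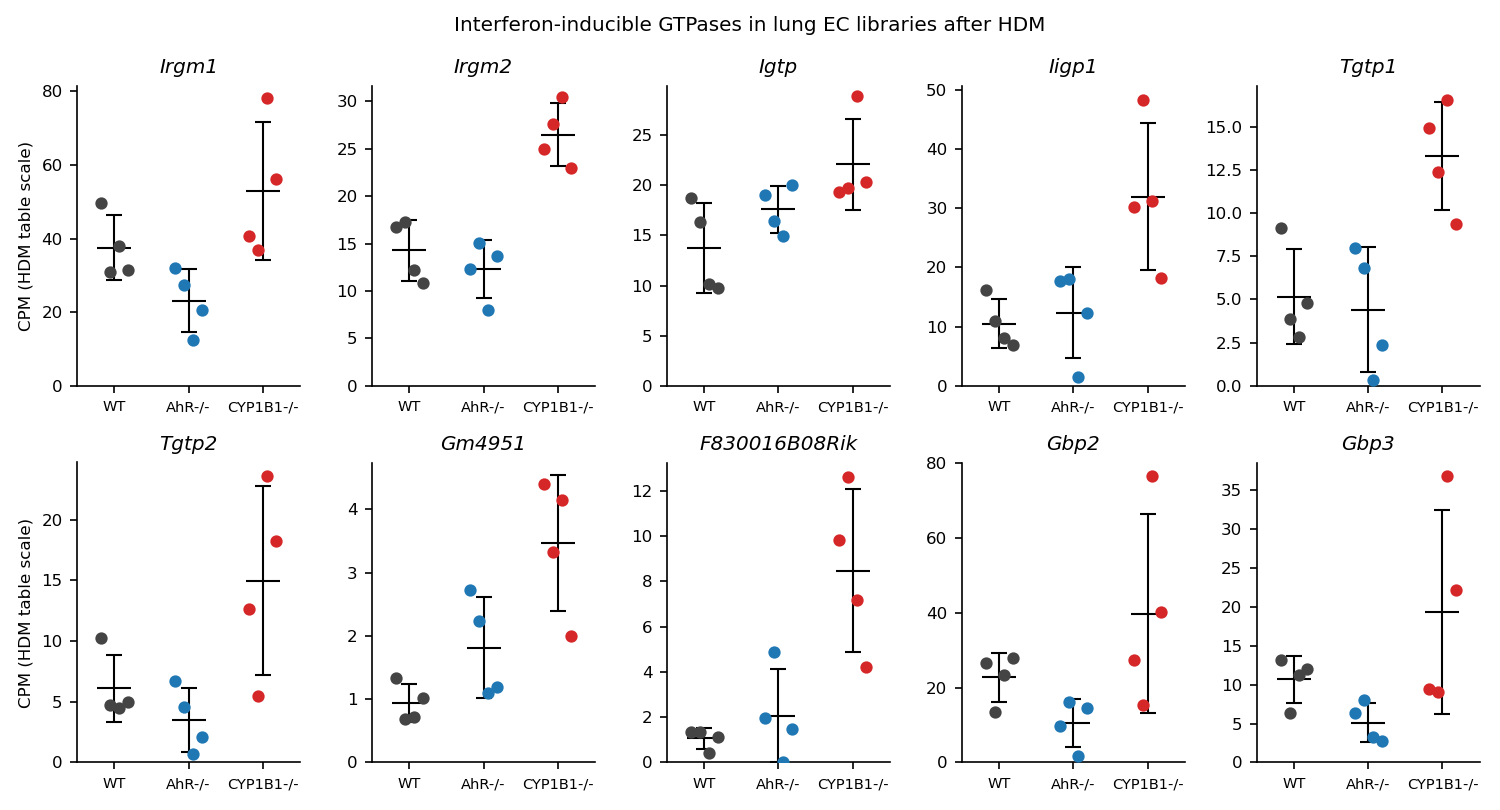
CPM of each gene (y axis, from 0, library sizes of the HDM table) in the HDM libraries of WT, AhR-/- and CYP1B1-/- ECs, 4 of each; points are libraries, the black line and bars the mean and SD. The CYP1B1-/- points of F830016B08Rik, Gm4951, Iigp1, Tgtp1, Irgm2 and Igtp lie above all WT points, whereas those of Gbp2, Gbp3, Tgtp2 and Irgm1 overlap with them.

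Gbp2 and Gbp3 varied widely among the CYP1B1-/- libraries. Gbp2 was at 27.2, 15.2, 76.4 and 40.2 CPM in CYP1B1-/- and at 26.5, 13.4, 23.4 and 27.9 CPM in WT ECs (log2 fold 0.81, SE 0.54). Gbp3 was at 9.49, 9.04, 36.8 and 22.1 CPM against 13.2, 6.36, 11.2 and 12.1 CPM (log2 fold 0.86, SE 0.46). Their high values came from CYP1B1-/- replicates 3 and 4, and replicates 1 and 2 were within the WT range. Without replicate 3 the log2 folds were 0.28 and 0.35. Of the 10 genes, 6 had all CYP1B1-/- libraries above all WT libraries, as had 0.544% of the 14161 genes tested. With library sizes set over both tables, 4 of 10 did (all genes: 0.424%), and Irgm2 and Igtp overlapped. The median log2 fold of the 10 genes was 1.09, and that of all genes was -0.01. Over all genes, edgeR called 0% in this contrast, and 1.65% had an unadjusted p under 0.05. Because the genes were picked for these values, nothing is read from the counts of the 10.

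The AhR-/- libraries give the same measures without having been used for the choice, although they are set against the same WT libraries. None of the 10 genes passed the threshold in AhR-/- against WT ECs after HDM, a comparison in which 22.1% of all genes did (9.22% higher, 12.9% lower). That share fell to 0 genes under some settings. At an unadjusted p under 0.05 there was 1 of 10 genes, Gm4951 (all genes: 38.8%), DESeq2 called 0 of 10 and limma voom 3 of 10. The directions were mixed: 4 genes had log2 folds above 0 and 6 below, with a median of -0.17, where the median of all genes was -0.00. Under other settings 4 to 9 of the 10 lay above 0. No gene of the 10 had AhR-/- libraries all above or all below the WT libraries, where 9.63% and 15.3% of all genes had. F830016B08Rik was at 1.96, 4.86, 0 and 1.46 CPM in AhR-/- ECs, where the 0 in replicate 3 allows up to 1.09 CPM (3 reads), and its log2 fold against WT was 1.12 (SE 0.64, adjusted p = 0.216 by edgeR). Gm4951 was at 2.72, 2.24, 1.09 and 1.19 CPM (log2 fold 0.96, SE 0.42, adjusted p = 0.11 by edgeR).

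On the other side, Gbp2 was at 9.8, 16.1, 1.82 and 14.6 CPM in AhR-/- ECs, a log2 fold of -1.07 (SE 0.55, adjusted p = 0.166 by edgeR), and Gbp3 had -1.02 (SE 0.47, adjusted p = 0.13). Irgm1, at 32.0, 27.5, 12.4 and 20.5 CPM, had -0.69 (SE 0.32, adjusted p = 0.134 by edgeR). Replicate 3, the shallowest of the 22 libraries, was the lowest of the 4 AhR-/- libraries for 9 of the 10 genes, all but Gbp3. Hematopoietic markers moved with this comparison: 7 of 10 were lower in AhR-/- ECs by the same test, and their summed level was 109 to 692 CPM against 1439 to 3370 CPM in WT ECs, with none of them at 0. With their mean level as a covariate the log2 folds of Irgm1, Gbp2 and Gbp3 turned to 0.04, 0.10 and 0.23. Markers of ECs moved too: 2 of 5 general epithelial, 1 of 3 club cell and 1 of 3 ciliated cell markers were higher in AhR-/- ECs, and none was lower. Of 5 markers each of alveolar type 1 and type 2 cells, 0 passed. The part of the EC markers in the folds was not tested.

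Set beside the CYP1B1-/- libraries of the same table, AhR-/- ECs had lower values for 10 of 10 genes, with log2 folds from -1.97 (Tgtp2, SE 0.54) through -1.88 (Gbp2, Gbp3), -1.84 (F830016B08Rik), -1.46 (Tgtp1), -1.31 (Iigp1), -1.18 (Irgm1), -1.09 (Irgm2) and -0.85 (Gm4951) to -0.33 (Igtp, SE 0.25). The genes were chosen to be high in these CYP1B1-/- libraries, so neither the direction nor the counts that follow are a result. None passed the threshold with edgeR (all genes: 0.00706%), and 8 of 10 had an unadjusted p under 0.05 (all genes: 29.9%). The hematopoietic markers were lower in the AhR-/- libraries too, with a median log2 fold of -2.34 (9 of 10 at an unadjusted p under 0.05, 0 of 10 past the threshold). With their level as a covariate, the log2 folds of Tgtp2, Gbp2 and Gbp3 were -0.87, -0.85 and -0.84, and that of F830016B08Rik stayed at -1.85. The libraries did not overlap for 5 of 10 genes (Irgm1, Irgm2, Iigp1, Tgtp1 and Gbp3; all genes: 3.24%), and for 3 with library sizes set over both tables (all genes: 1.63%).

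The difference between genotypes at steady state and that after HDM were compared in the fit over both tables. For CYP1B1-/- against WT the change of the effect was above 0 for 10 of 10 genes, with a median of 1.27 on the log2 scale (all genes: -0.02). It was 3.31 (SE 0.89) for F830016B08Rik, 2.13 (SE 0.71) for Gm4951 and 1.94 (SE 0.72) for Iigp1, and lowest for Irgm1 at 0.62 (SE 0.61). The change was 0.91 for Irgm2, 0.66 for Igtp, 1.51 for Tgtp1, 1.38 for Tgtp2, 1.13 for Gbp2 and 1.16 for Gbp3. None of the 10 passed the threshold with edgeR, DESeq2 or limma voom, and 0% of all genes did with edgeR; 3 of 10 had an unadjusted p under 0.05 (all genes: 2.3%). As it contains the contrast that chose the genes, nothing more is read from it. For AhR-/- against WT none passed either (all genes: 0%). At an unadjusted p under 0.05 there were 0 of 10 (all genes: 18.3%), DESeq2 and limma voom called none, and 7 of 10 genes lay above 0 (median 0.22, all genes: 0.02).

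**Figure D3:**
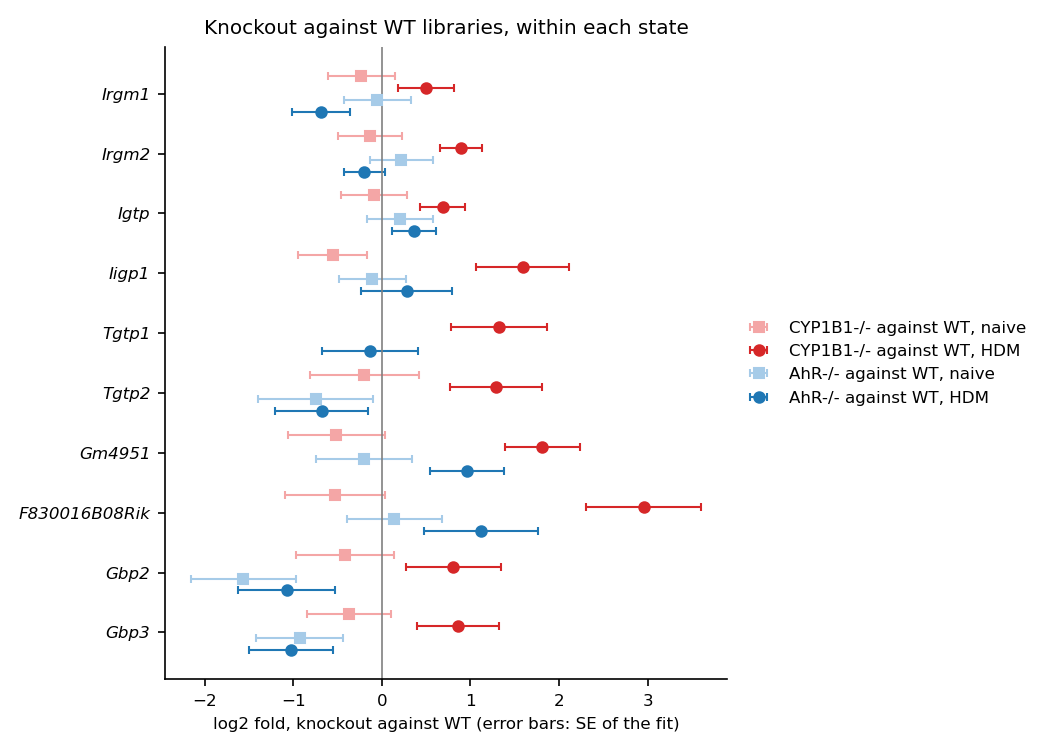
Log2 fold of CYP1B1-/- and AhR-/- against WT libraries (x axis) for each gene (y axis) at steady state (squares) and after HDM (circles), from the fit within each state; bars are standard errors. Tgtp1 was not tested at steady state. The CYP1B1-/- folds lie below 0 at steady state and above 0 after HDM, up to 2.96 for F830016B08Rik.

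In the CYP1B1-/- HDM libraries, F830016B08Rik and Iigp1 peaked in another library than the GBPs, and the libraries also differed in markers of other cells. The summed CPM of 10 hematopoietic markers (Ptprc, Coro1a, Laptm5, Cd52, Lcp1, Rac2, Cd53, Ikzf1, Vav1, Dock2) in CYP1B1-/- HDM replicates 1 to 4 was 1514, 239.6, 3407 and 2650. In WT HDM libraries it was 2340, 1439, 3370 and 2686. F830016B08Rik and Iigp1 were highest in CYP1B1-/- replicate 2, the library with the fewest such reads of the CYP1B1-/- and WT HDM libraries. Gm4951 was highest in replicate 1 (4.39 CPM, against 3.33 CPM in replicate 2). Gbp2 and Gbp3 were lowest in replicate 2 among the CYP1B1-/- libraries and highest in replicate 3. The summed CPM of 5 markers of alveolar type 2 cells, the surfactant-making ECs, was 13086, 21591, 2244 and 5879 in CYP1B1-/- and 10161, 7664, 2824 and 2104 in WT HDM libraries, so that replicate 2 was also the highest of these 8 in such markers. It had 112 CPM of 4 mesenchymal markers, against 8.78 to 34.2 CPM in the other HDM libraries. In AhR-/- HDM replicates 1 to 4 the type 2 markers were at 37006, 17056, 4958 and 3897 CPM. F830016B08Rik was at 1.96, 4.86, 0 and 1.46 CPM in the same libraries. The part of these cell types in the results was not tested. In bulk libraries, fewer cells of a type and less RNA per cell cannot be told apart.

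**Figure D4:**
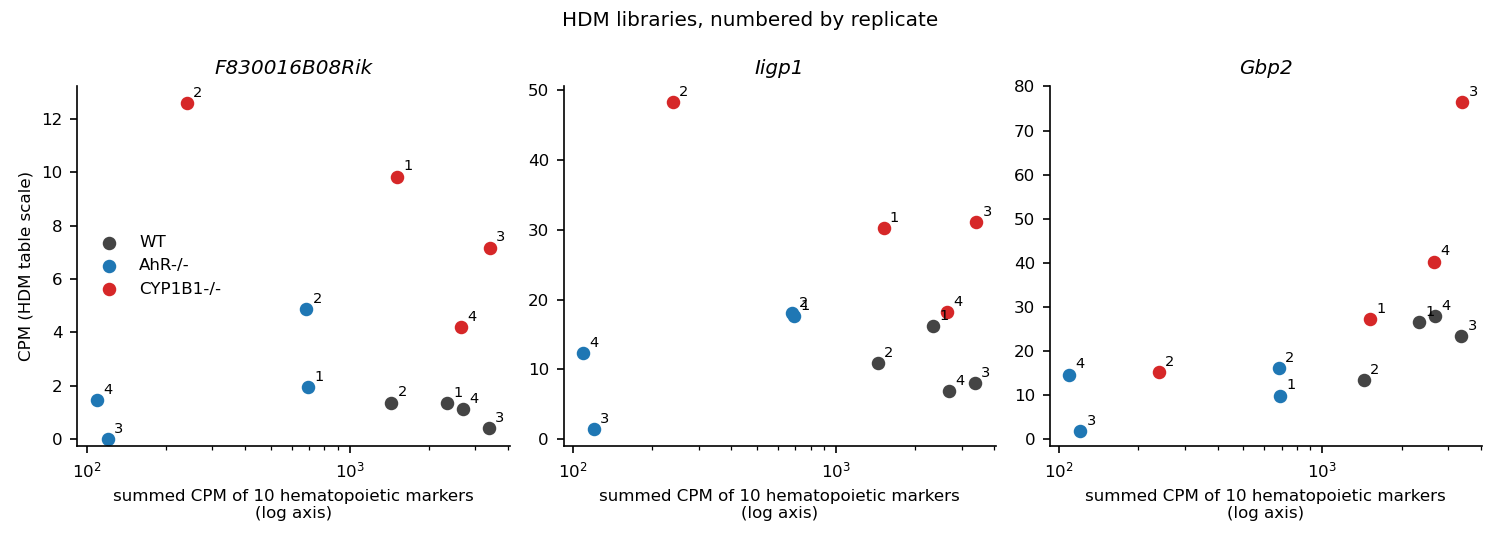
CPM of F830016B08Rik, Iigp1 and Gbp2 (y axes, HDM table scale) against the summed CPM of 10 hematopoietic markers (x axes, log scale) in the 12 HDM libraries, numbered by replicate within genotype. CYP1B1-/- replicate 2, at 239.6 CPM of markers, has the highest F830016B08Rik (12.6 CPM) and Iigp1 (48.3 CPM), while Gbp2 peaks at 76.4 CPM in replicate 3.

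With the mean level of these markers as a covariate, the log2 folds of CYP1B1-/- against WT after HDM were 2.91 for F830016B08Rik, 1.92 for Gm4951, 1.57 for Iigp1, 0.91 for Irgm2, 0.71 for Igtp, 0.95 for Gbp2 and 1.07 for Gbp3, against 2.96, 1.81, 1.59, 0.90, 0.69, 0.81 and 0.86 without it. From naive to HDM the same covariate moved several log2 folds further. State and marker level went together in most libraries, so the covariate takes up part of the state. In WT ECs the log2 fold of Gbp3 went from 2.51 to -0.21, that of Gbp2 from 3.15 to 0.88 and that of Tgtp2 from 3.58 to 1.00. Iigp1 moved less, from 1.88 to 1.52 in WT, from 2.21 to 1.94 in AhR-/- and from 3.82 to 3.43 in CYP1B1-/- ECs, and F830016B08Rik went from 4.61 to 4.04 in CYP1B1-/- ECs.

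**Figure D5:**
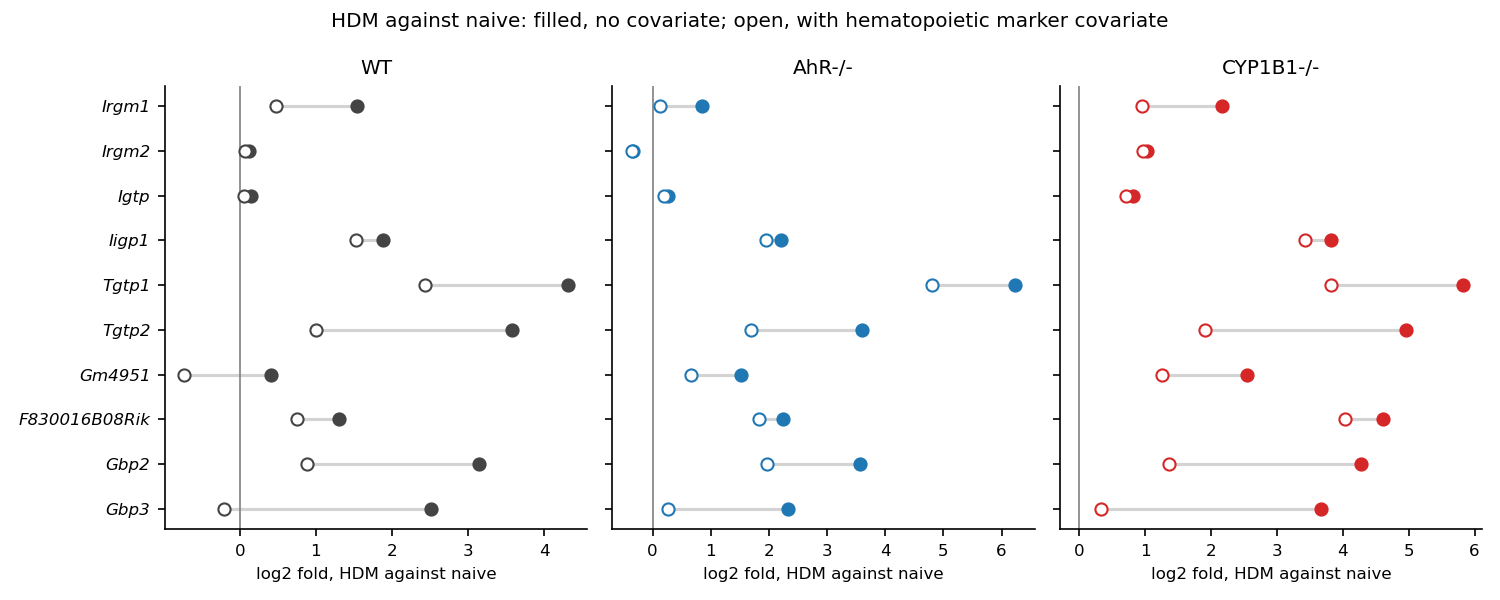
Log2 fold of HDM against naive libraries (x axes) for each gene (y axis) in WT, AhR-/- and CYP1B1-/- ECs, without (filled) and with (open) the mean level of 10 hematopoietic markers as a covariate. The open points of Tgtp1, Tgtp2, Gbp2 and Gbp3 lie far below the filled ones (2.51 to -0.21 for Gbp3 in WT), and those of Iigp1 lie closer (1.88 to 1.52 in WT).

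Other genes of both families and related GTPases were also counted from naive to HDM. Of 21 relatives listed, 16 were tested, and 12 rose and 1 fell in WT ECs, 12 rose and 1 fell in AhR-/- ECs, and 13 rose and 1 fell in CYP1B1-/- ECs, with median log2 folds of 2.44, 3.00 and 4.07. Of the 16, 7 were too low to be tested among the naive libraries and entered through the HDM libraries, so that the filter itself favoured a rise. Of the other 9, 6 rose and 1 fell in WT, 5 rose and 1 fell in AhR-/-, and 7 rose and 1 fell in CYP1B1-/- ECs. Of all genes, 19%, 10.6% and 15.5% rose in the same comparisons. The hematopoietic markers rose with them, and with their level as a covariate 0, 2 and 0 relatives passed, with median log2 folds of 0.44, 0.57 and 0.86. The gene that fell was Irgq in each genotype, an IRG-like gene that was named after its values were seen. Gm5431, an IRG gene and one of the 7 that entered through the HDM libraries, had 4.38 in WT, 3.17 in AhR-/- and 5.00 in CYP1B1-/- ECs. Gbp8, which was also tested among the naive libraries, had 4.50, 4.23 and 5.64. Ifi47 (Irgd) had 3.72 in WT and 3.41 in AhR-/- ECs. In CYP1B1-/- against WT ECs after HDM, 14 of 16 relatives had log2 folds above 0 with a median of 0.71, and none passed the threshold. Gbp6 had 1.42, Gbp4 0.98 and Gbp9 0.78. In 2 of the 16, Gbp4 and Gbp8, all CYP1B1-/- libraries lay above all WT libraries, in 14 the groups overlapped, and of all genes 0.544% lay above. Gbp4 was at 9.84, 13.1, 20.96 and 14.4 CPM in CYP1B1-/- and at 7.48, 8.4, 5.81 and 8.2 CPM in WT ECs. Gbp6 and Gbp9 overlapped, with 1.74 CPM as the lowest CYP1B1-/- and 1.76 CPM as the highest WT value of Gbp6, and 6.90 and 8.36 CPM for Gbp9. In AhR-/- against WT ECs after HDM, 3 of 16 were lower (all genes: 12.9%). These were the IRG gene 9930111J21Rik1 (log2 fold -2.19), Gm5431 (-1.27) and the antiviral GTPase Mx1 (-2.03). The hematopoietic markers were lower in the same libraries (7 of 10), and with their level as a covariate 0 of 16 relatives passed. Leaving out 1 library took the count of all genes called in this comparison as low as 0.

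Genes of interferon signalling were not chosen for the contrast of CYP1B1-/- and WT ECs after HDM, as the 10 genes were, so their values are given beside it without a comparison. Of 13 genes of interferon-gamma receptor signalling, 2 had log2 folds above 0 in CYP1B1-/- against WT ECs after HDM (median -0.16), and 0 passed the threshold. Other interferon-gamma targets had a median of -0.07 (6 of 16 above 0), with Cxcl9, a chemokine, at 0.56. With the hematopoietic covariate the medians of these 2 lists were 0.03 and 0.20. Type I interferon targets had a median of 0.10 (15 of 21 above 0), with Rtp4 at 0.85 and Oas2, which senses double-stranded RNA, at 0.95. The machinery that conjugates ATG8 proteins to membranes, which directs IRG effectors and GBPs to vacuoles, had a median of -0.12 over 12 genes. Ifng itself was at 0 to 0.402 CPM in naive and 0 to 1.59 CPM in HDM libraries, with no more than 0.337 CPM in CYP1B1-/- HDM libraries, and was too low to be tested.

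In AhR-/- against WT ECs after HDM, 5 of 13 signalling genes and 9 of 16 interferon-gamma targets were lower and none was higher, where 12.9% of all genes were lower. These calls depend on single libraries, since leaving out 1 took the count of all genes called as low as 0. Socs1, the feedback inhibitor of Jak kinases, had a log2 fold of -2.06 (adjusted p = 0.0313 by edgeR) and is on both lists. Irf8 had -4.09, Ciita, the activator of MHC class II genes, had -3.25 and Cxcl9 had -3.30. Ciita was at 31.1, 32.2, 4.37 and 4.77 CPM in AhR-/- and at 150, 74.9, 275 and 203 CPM in WT ECs. Irf8 and Ciita are genes that leukocytes express, and the hematopoietic markers were lower in the same libraries; with their level as a covariate 0 of 13 and 0 of 16 passed. Type I targets went both ways, 2 higher (Ifit3b, Ifit3) and 4 lower.
From naive to HDM, 13 of 16 interferon-gamma targets rose and 1 fell in WT ECs, 7 rose and 1 fell in AhR-/- ECs, and 12 rose and 1 fell in CYP1B1-/- ECs. Of all genes 19%, 10.6% and 15.5% rose and 19.4%, 10.1% and 17.9% fell, and whether the genotypes differed in these counts was not tested. Cxcl10 rose in each genotype (log2 folds 3.02, 3.71 and 4.07), as did Nlrc5, the activator of MHC class I genes (5.04, 3.66 and 4.57). With the hematopoietic covariate, 0, 1 and 0 of these 16 targets passed in WT, AhR-/- and CYP1B1-/- ECs from naive to HDM.

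The 10 genes varied together within groups. Over the 22 libraries, after the group mean was subtracted, each gene's log2 CPM correlated with the mean standardized deviation of the other 9 at Pearson r of 0.504 (Gbp3) to 0.830 (Irgm1). The libraries share depth and cell content, so this describes them and is not a test. The genes outside the set closest to its mean by the same measure were Mrps36 (r = 0.863), Szrd1, Nsa2, Rpl9-ps6, Ly6e, Ly6a, Asna1, Bcl2a1b, Ddb2 and H2-T22 (r = 0.823). On chromosome 18, 16 other genes tested within 1 Mb of Gm4951, F830016B08Rik and Iigp1 were looked at after the values of the 3 were seen. For 0 of the 16 did all CYP1B1-/- libraries lie above all WT libraries after HDM, as for 0.544% of all genes, and nothing is read from that count.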

How the data were processed

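Libraries of sorted lung ECs were made from total RNA with a template-switching protocol and tagmentation. The authors mapped the reads with GSNAP to mm10 and counted them per gene with featureCounts (2.0.0), per the labels; the deposited values are raw counts, 1 column per library, in one table per state. Strand and multi-mapping settings are not given in the sources used here. Protein-coding genes (GENCODE M21) were filtered with filterByExpr (10 counts in the smallest group, 15 in all), scaled by TMM and fitted with edgeR 4.0.16 (quasi-likelihood, robust; R 4.3.3), within each table for genotypes and over 22 libraries for states. P-values were adjusted by Benjamini-Hochberg over all genes tested, with a threshold of 0.05. Standard errors (SE) of log2 folds were taken as the fold divided by the root of the F statistic. DESeq2 1.42.0 and limma voom 3.58.1 were alternatives. The fits were also run on simulated counts, and the outcome is not given here. Libraries of a group differed from each other by more than counting noise. The 10 genes and the lists were chosen with earlier results of these data known. From each list, genes past the threshold are named (at most 5 per comparison by p), otherwise among the 3 with the lowest p; other genes with values were chosen after these were seen. A gene of the lists is not reported here. Intervals and floors cover counting error only.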

Additional observations from a re-analysis of the deposited data

Results flagged for a closer look

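Within groups of 4 libraries, a value far from the other 3 on the log2 scale by Dixon's ratio was found in 5 of 40 combinations of gene and group, and chance gives about 1 in 20. Gm4951 was low in WT naive replicate 4, at 0.361 CPM. Tgtp2 was high in WT HDM replicate 1, at 10.3 CPM. F830016B08Rik was low in WT HDM replicate 3, at 0.408 CPM, a value of 4 reads. Iigp1 was low in AhR-/- HDM replicate 3, at 1.46 CPM, also 4 reads. Igtp was high in CYP1B1-/- HDM replicate 3, at 28.9 CPM.

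Gm12250, which encodes the effector Irgb10, is a processed pseudogene in the annotation used and was therefore not among the genes tested above. In a fit over all listed genes its log2 fold from naive to HDM libraries was 4.01 in WT, 3.71 in AhR-/- and 4.36 in CYP1B1-/- ECs. It had 1 to 10 reads per naive library, was too low to be tested there and entered that fit through its HDM reads, so that these folds are a description and loosely set.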

How the results depend on the processing

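The number of the 10 genes called in naive comparisons and in differences between states of the genotype effect was 0 under every alternative run, including the replicate block, which changed the number of the 10 genes called in no comparison. Same-numbered libraries deviated with correlations of -0.0266 to 0.217 at steady state and -0.543 to 0.735 after HDM, so the numbers do not pair them. The block took the count of all genes called in AhR-/- against WT after HDM from 3129 to 1. Leaving out each library gave counts from 0 to 4137 there. For CYP1B1-/- against WT after HDM, DESeq2 and the edgeR likelihood ratio test called 1 gene, from which nothing is read, as this contrast chose the genes. For AhR-/- against WT after HDM, limma voom called 3. For AhR-/- against CYP1B1-/- after HDM, where the choice of genes bears on the counts, DESeq2 called 7, limma voom 6, the likelihood ratio test 7 and the fit without 5 shallow libraries 3 (chosen after seeing the data); leaving out each library gave 0 to 6, with 6 without AhR-/- replicate 2 and 5 without CYP1B1-/- replicate 2. On library sizes set over both tables (also chosen after seeing the data), 3 genes and not 5 did not overlap there. From naive to HDM, the hematopoietic covariate gave 0 (WT), 1 (AhR-/-) and 0 (CYP1B1-/-), and leaving out each library gave 6 in WT, 4 to 7 in AhR-/- (4 without naive replicate 3) and 8 to 10 in CYP1B1-/- ECs. Signs turned for Irgm1 (0.0363), Gbp2 (0.0962) and Gbp3 (0.23) in AhR-/- against WT after HDM and for Gm4951 (-0.73) and Gbp3 (-0.21) in WT from naive to HDM with the covariate, for Igtp there with voom (-0.0412), and for Irgm2 there without shallow libraries (-0.0368); of these, Gbp3 in WT from naive to HDM was called without the covariate (2.51) and not with it, and the others were called in neither fit. Leaving out each library gave -0.17 to 0.330 for Igtp and -0.0810 to 0.272 for Irgm2 there, lowest without WT HDM replicate 1. The cause was not tested. Gbp3 in CYP1B1-/- against WT after HDM was at 0.35 without CYP1B1-/- replicate 3 and at 1.33 without shallow libraries.

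Depth limits F830016B08Rik, Gm4951, Tgtp1 and Tgtp2, which had 0 to 22 reads in each naive library. Tgtp1 and Tgtp2 share most of their sequence. State and run cannot be told apart, and Y-linked reads went with them except in AhR-/- HDM replicates 3 and 4. Summed hematopoietic markers went with them too, but were lower in those 2 libraries (120 and 109 CPM) and CYP1B1-/- HDM replicate 2 (239.6 CPM) than in other HDM libraries. They were at 51.8 to 85.8 CPM in naive AhR-/- and 51.8 to 66.8 CPM in naive CYP1B1-/- libraries, on the naive scale.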
